A study of Homo sapiens with 12 samples.

Results

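Complement is a set of blood and cell-surface proteins that tags and lyses targets. A set of its genes and the extracellular chaperone clusterin are described here in 2 acute myeloid leukemia (AML) cell lines: C3, CFP, CFD, C3AR1, CR1, CD46, CD55, CD59 and CLU, 9 of the 60709 gene identifiers in the expression tables. These 9 genes were chosen from their measured changes with the drug and from their measured levels in the lines, so their values in the comparisons below are a description and carry no test. HL-60 and Molm-14 are established human AML lines. Each was cultured for 36 h with no duocarmycin SA (DSA, a compound that alkylates DNA in the minor groove), with a low dose or with a high dose, and 2 RNA sequencing libraries were made from each of the 6 groups. The groups were HL-60 at 112.7 pM (low), HL-60 at 500 pM (high) and untreated HL-60 controls, and Molm-14 at 11.1 pM (low), Molm-14 at 100 pM (high) and untreated Molm-14 controls. The lines were grown in different media with different serum content and received different doses, so line, medium and dose cannot be told apart between them. The sources do not say whether the 2 libraries of a group are separate cultures. The spread behind each p-value is that between libraries and may be technical.

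Several routes start complement: the classical and lectin routes by recognition proteins, and the alternative route by slow turnover of C3 with factor B, factor D and properdin. All of them cleave C3, the central component, after which C3 fragments mark surfaces and signal through receptors, and C5 starts the terminal pore. Host cells hold membrane proteins that stop this on their own surface. Myeloid cells are known to make several of the components and most of the receptors.

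Levels below are CPM (deposited expected counts relative to the TMM-scaled library total) for comparisons of a gene between libraries, and deposited TPM (which also corrects for transcript length) for comparisons between genes. Total counts were between 21177424 and 63927449 a library (median 35957896.5), and mitochondrial transcripts held 1.47% to 5.46% of the counts, a share higher in each DSA group than in the controls of its line. The deepest library was HL-60 control replicate 2. In bulk RNA, a change in the number of cells of a type and a change in RNA per cell cannot be told apart.

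C3, the substrate of all 3 routes, was higher at the high dose of DSA in both lines. Its HL-60 values were 8.55 and 7.99 CPM in the controls, 10.5 and 11.2 CPM at 112.7 pM and 61.0 and 58.4 CPM at 500 pM. The high-dose libraries lay far above the others, and most of the change came between the low and the high dose: the log2 fold change was 0.40 ± 0.086 (SE) for low DSA over control and 2.46 ± 0.074 for high over low DSA. In Molm-14 cells C3 had 3.07 and 2.93 CPM in the controls, 3.19 and 3.66 CPM at 11.1 pM and 7.11 and 7.65 CPM at 100 pM. The log2 change of high DSA over control was 2.86 ± 0.070 in HL-60 and 1.30 ± 0.11 in Molm-14 cells. C3 lies on chromosome 19 (hg38, 6677704 to 6730562, minus strand) and shares the 649 bases at its 5′ end with GPR108, on the same strand. GPR108 had 29.7 and 31.9 CPM at 500 pM, against 21.0 and 20.9 CPM in HL-60 controls, and 89.4 and 86.5 CPM at 100 pM, against 79.6 and 76.8 CPM in Molm-14 controls. With both genes' counts summed, the log2 change was 1.63 in HL-60 and 0.23 in Molm-14 cells. GPR108 held most of the sum in Molm-14 cells and in HL-60 controls (mean 21.0 CPM there, against 8.27 for C3). In neither line does the sum show how far shared reads affect C3.

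CFP encodes properdin, which stabilizes the alternative route's C3 convertase. It followed C3 in direction, with 6.78 and 7.67 CPM in HL-60 controls, 14.6 and 16.8 CPM at 112.7 pM and 54.1 and 51.1 CPM at 500 pM. Both doses were above the controls, and the high dose was the highest. In Molm-14 cells CFP had 2.592 and 2.21 CPM in the controls, 2.593 and 2.92 CPM at 11.1 pM and 8.67 and 8.70 CPM at 100 pM. The lower low-dose library all but met the higher control, whereas the high dose lay well above both groups. The log2 change of high DSA over control was 2.85 ± 0.081 in HL-60 and 1.86 ± 0.13 in Molm-14 cells.

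CFD encodes factor D (adipsin), the serine protease that cleaves factor B. It was the member with the highest level in Molm-14 cells and changed little with DSA in either line. Its CPM was 259.8 and 266 in Molm-14 controls, 228 and 259.95 at 11.1 pM and 314 and 290.3 at 100 pM. In HL-60 cells it was 25.1 and 30.1 CPM in the controls, 31.5 and 27.2 CPM at 112.7 pM and 35.4 and 26.4 CPM at 500 pM, and here the groups overlapped. The log2 change of high DSA over control was 0.12 ± 0.11 in HL-60 and 0.20 ± 0.077 in Molm-14 cells. The HL-60 value was -0.08 without high DSA replicate 1 and 0.34 without high DSA replicate 2, so no direction is given. CFD lies on chromosome 19 (859453 to 867884, plus strand), 3206 bases beyond ELANE in a row with AZU1 and PRTN3, which encode granule proteins. At 500 pM against control these 3 neighbours fell in HL-60 cells, with log2 changes of -1.78 ± 0.048 for ELANE (adjusted p = 2.95e-16), -2.32 ± 0.051 for PRTN3 (adjusted p = 2.6e-17) and -0.95 ± 0.050 for AZU1 (adjusted p = 4.14e-12, all by edgeR's quasi-likelihood test over 13422 genes). CFD overlaps MED16 on the other strand by 255 bases, and MED16 fell in both lines (log2 -0.59 ± 0.051 in HL-60, adjusted p = 4.72e-09, and -0.32 ± 0.048 in Molm-14 cells, adjusted p = 1.96e-05). The summed counts of CFD and MED16 gave -0.30 in HL-60 and 0.11 in Molm-14 cells. MED16 had a mean of 53.0 CPM in HL-60 controls, against 27.6 for CFD, so the sum does not show how far shared reads affect CFD.

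The promoters of CFP, whose level was higher with DSA in both lines, and CFD, whose level hardly moved, are shown for comparison. They are RefSeq windows of 300 bases (GRCh38.p14), with 250 before and 50 after an annotated start, printed 5′ to 3′ on the gene's strand, CFP at chrX:47630256-47630555 (minus) and CFD at chr19:859414-859713 (plus).
CFP: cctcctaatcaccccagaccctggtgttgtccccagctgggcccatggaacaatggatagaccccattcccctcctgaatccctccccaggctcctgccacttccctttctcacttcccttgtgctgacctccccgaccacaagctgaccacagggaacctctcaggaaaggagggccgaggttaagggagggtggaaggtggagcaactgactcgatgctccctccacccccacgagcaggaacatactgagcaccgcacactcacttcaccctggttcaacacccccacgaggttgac
CFD: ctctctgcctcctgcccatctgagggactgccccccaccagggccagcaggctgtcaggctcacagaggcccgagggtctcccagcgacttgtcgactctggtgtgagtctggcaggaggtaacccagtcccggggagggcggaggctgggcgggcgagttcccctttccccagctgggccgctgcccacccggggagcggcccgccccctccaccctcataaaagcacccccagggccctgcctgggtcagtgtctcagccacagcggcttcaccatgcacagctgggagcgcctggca
Neither held the AP-1 motif TGANTCA, the C/EBP motif TTGCNNAA or the PU.1 motif GAGGAAG on either strand, which says only that these letters are not in these windows.

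Factor B itself was close to absent. CFB had 0 to 3 counts in each of the 12 libraries, and CFI, which encodes the protease that inactivates C3b, had 0 counts in all 12. The alternative route's other parts were measured well above this: in HL-60 cells at 500 pM, mean TPM was 31.4 ± 4.21 for C3, 50.3 ± 0.042 for CFP and 38.5 ± 9.25 for CFD (SD, n = 2).

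**Figure D1:**
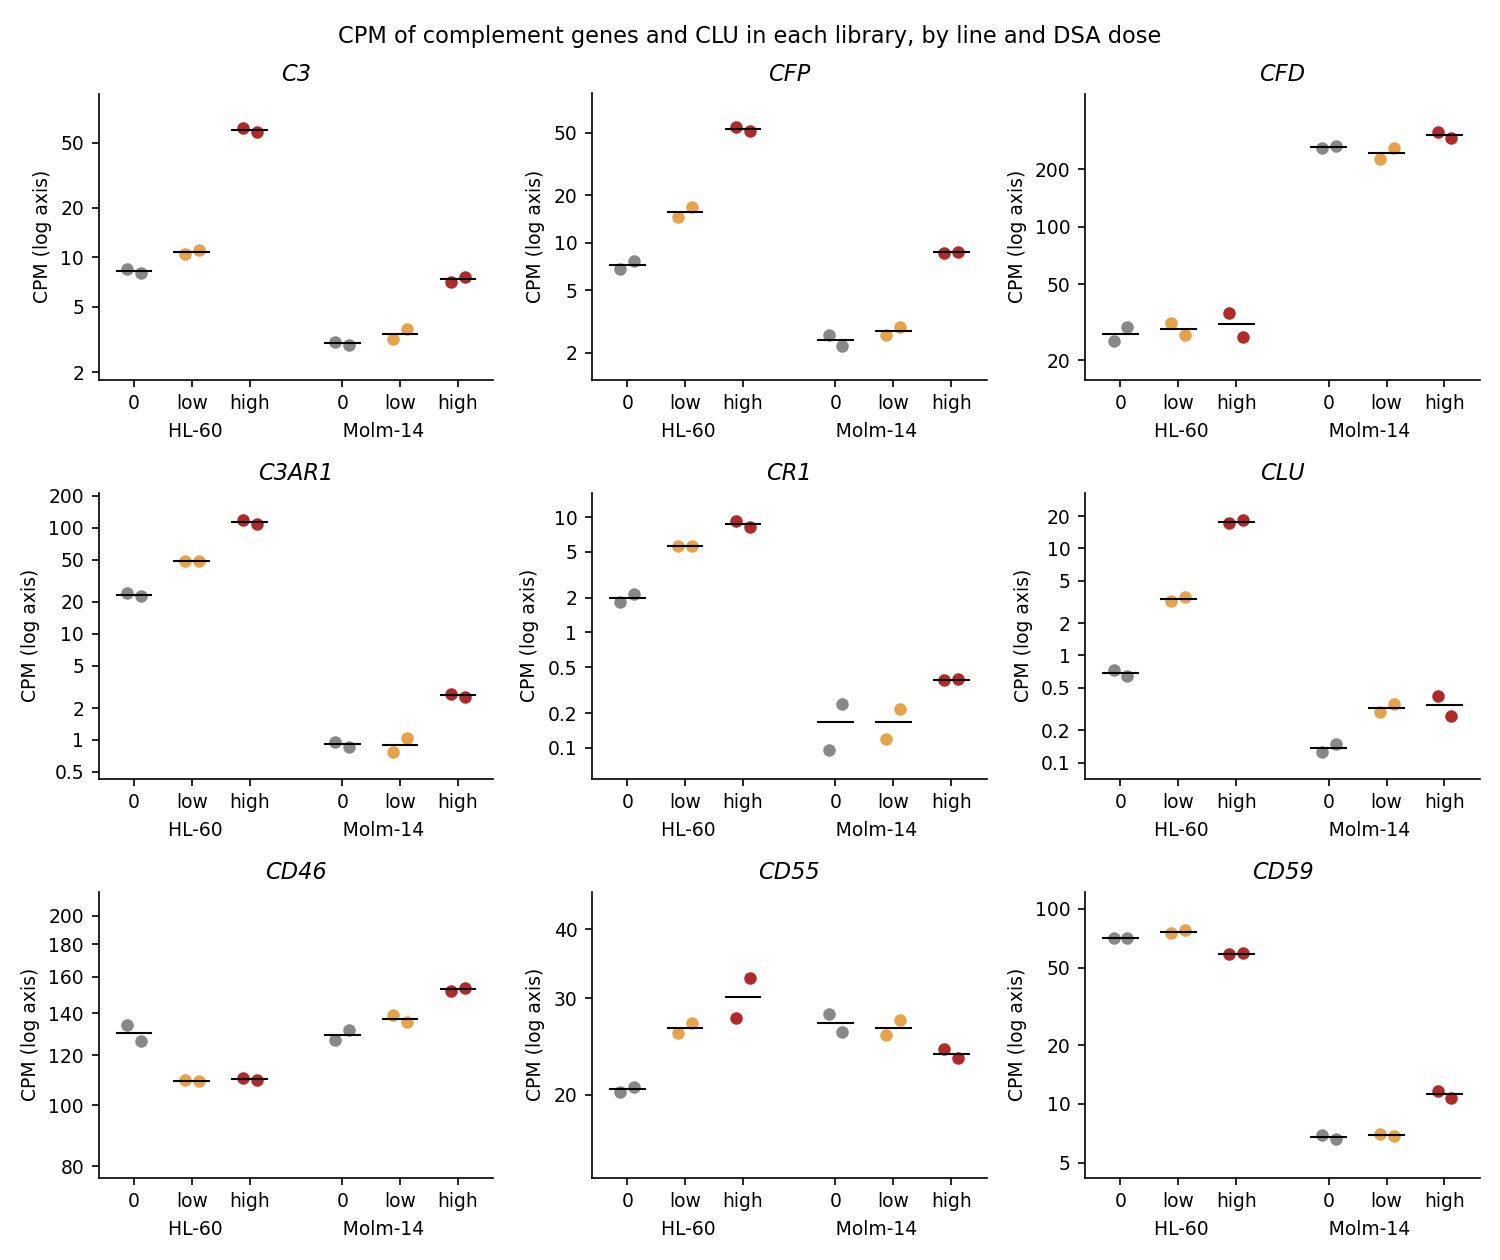
CPM of each member in each library (log axis, a scale of its own in each panel), for control (0), low and high DSA in HL-60 and then Molm-14 cells. Points are libraries and lines are group means of 2. C3, CFP, C3AR1 and CR1 stand highest at the high dose within each line, whereas CFD differs between the lines far more than with dose.

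The 2 members that are receptors for C3 fragments, C3AR1 and CR1, were also higher with high DSA. C3AR1 encodes the receptor for C3a, and in HL-60 cells it had 24.1 and 22.8 CPM in the controls, 48.2 and 48.7 CPM at 112.7 pM and 119 and 108 CPM at 500 pM. The 3 groups did not overlap and followed the dose. In Molm-14 cells its level was low throughout, with 0.948 and 0.867 CPM (30 and 29 counts) in the controls, 0.775 and 1.04 CPM at 11.1 pM and 2.74 and 2.53 CPM (99 and 84 counts) at 100 pM. The log2 change of high DSA over control was 2.28 ± 0.057 in HL-60 and 1.54 ± 0.19 in Molm-14 cells.

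CR1 encodes complement receptor 1 (CD35), which binds C3b and C4b and also helps to inactivate them. HL-60 controls had 1.85 and 2.14 CPM, the 112.7 pM libraries 5.59 and 5.58 CPM and the 500 pM libraries 9.27 and 8.20 CPM. Unlike C3, CR1 had made most of its change by the low dose, with a log2 change of 1.47 ± 0.18 for low DSA over control and 0.64 ± 0.16 for high over low DSA. Molm-14 cells held few CR1 reads, with 3 and 8 counts in the controls, 4 and 8 at 11.1 pM and 14 and 13 at 100 pM. The log2 change at 100 pM over control was 1.19 ± 0.46, and it was 0.69 without control replicate 1 and 1.996 without control replicate 2. The near-identical gene CR1L had at most 2 counts in a library, and summing the pair moved no CR1 value by more than the spread between replicates.

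C3AR1 and CR1 are likewise shown by their RefSeq promoter windows, C3AR1 at chr12:8066310-8066609 (minus) and CR1 at chr1:207495907-207496206 (plus), because both were higher with DSA and 1 of them holds a motif. Capitals mark a match to the AP-1 motif.
C3AR1: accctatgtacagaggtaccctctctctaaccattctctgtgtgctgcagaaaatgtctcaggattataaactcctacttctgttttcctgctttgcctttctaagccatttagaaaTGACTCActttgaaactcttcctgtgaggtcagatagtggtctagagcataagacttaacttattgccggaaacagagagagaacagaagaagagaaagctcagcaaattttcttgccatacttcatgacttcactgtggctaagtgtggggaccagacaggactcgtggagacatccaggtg
CR1: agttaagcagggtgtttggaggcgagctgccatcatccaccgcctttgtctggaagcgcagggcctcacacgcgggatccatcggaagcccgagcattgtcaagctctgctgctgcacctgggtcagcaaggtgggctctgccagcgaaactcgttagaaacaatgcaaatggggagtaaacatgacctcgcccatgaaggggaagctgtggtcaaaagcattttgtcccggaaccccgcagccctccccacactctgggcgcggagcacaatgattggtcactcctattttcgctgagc
The C3AR1 match begins 133 bases before the start. The promoter table held 12 windows for 7 of the 9 members (none for C3 or CLU). Of these, 2 windows held AP-1 (this motif reads the same on both strands), 1 held C/EBP and 0 held PU.1, where 7.71%, 10.5% and 13.6% of all 35116 windows did. The other AP-1 window and the C/EBP window both belong to starts inside CD59 and overlap each other.

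Clusterin (CLU, chromosome 8, 27596917 to 27614700) is a secreted chaperone that binds the terminal complement complex in solution. It showed the largest log2 change among the 9 members, in HL-60 cells: 0.724 and 0.645 CPM in the controls, 3.23 and 3.49 CPM at 112.7 pM and 17.1 and 18.6 CPM at 500 pM. The log2 change was 2.31 ± 0.20 at the low and 4.72 ± 0.16 at the high dose over control, close to equal steps per dose. In Molm-14 cells CLU had 4 and 5 counts in the controls, 10 and 13 at 11.1 pM and 15 and 9 at 100 pM. The 2 doses overlapped there, both above the controls, and the log2 change was 1.22 ± 0.46 at the low and 1.30 ± 0.45 at the high dose. CLU's deposited TPM in Molm-14 cells did not follow its counts (0.36 and 0.28 in the controls, 0.15 and 0.20 at 11.1 pM, 0.36 and 0.40 at 100 pM), so no direction is read at these levels.

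The membrane regulators CD46, CD55 and CD59 differed little from the controls next to C3, CFP and the receptors, and lay on opposite sides of them in the lines at the high dose. CD46 (membrane cofactor protein) serves factor I in cutting C3b and C4b. CD55 (decay-accelerating factor) breaks up C3 convertases, and CD59 (protectin) stops the terminal pore. CD55 and CD59 are held in the membrane by a glycosylphosphatidylinositol (GPI) anchor.

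For CD46, HL-60 cells had 134 and 126 CPM in the controls, 109.5 and 109 CPM at 112.7 pM and 110.5 and 109.7 CPM at 500 pM, with both doses below the controls in CPM. Molm-14 cells had 127 and 132 CPM in the controls, 139 and 135 CPM at 11.1 pM and 152 and 153 CPM at 100 pM, each step higher in CPM. By TPM the low dose (61.4 and 52.2) overlapped both the controls (49.4 and 55.4) and the high dose (60.4 and 57.4), and the high dose lay above the controls. The log2 change of high DSA over control was -0.24 ± 0.038 in HL-60 and 0.24 ± 0.038 in Molm-14 cells. The deposited TPM of CD46 overlapped between HL-60 groups (51.2 and 48.3 at 112.7 pM and 47.1 and 43.7 at 500 pM, against 52.3 and 45.9 in the controls). Scaling by total counts alone left a log2 change in HL-60 cells of -0.18 at the low and -0.06 at the high dose.

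CD55 lay the other way round in each line. It had 20.3 and 20.7 CPM in HL-60 controls, 25.9 and 27.0 CPM at 112.7 pM and 27.6 and 32.7 CPM at 500 pM, and 28.1 and 26.0 CPM in Molm-14 controls, 25.7 and 27.3 CPM at 11.1 pM and 24.2 and 23.3 CPM at 100 pM. The high dose lay above the controls in HL-60 and below them in Molm-14 cells, with log2 changes of 0.57 ± 0.071 and -0.19 ± 0.072.

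CD59 was far higher in HL-60 cells and followed no dose order there. It had 71.2 and 71.3 CPM in HL-60 controls, 75.2 and 77.6 CPM at 112.7 pM and 58.4 and 59.2 CPM at 500 pM. In Molm-14 cells it had 6.89 and 6.61 CPM in the controls, 7.04 and 6.85 CPM at 11.1 pM and 11.7 and 10.7 CPM at 100 pM. The log2 change of high DSA over control was -0.28 ± 0.044 in HL-60 and 0.73 ± 0.078 in Molm-14 cells. With total counts alone the HL-60 value was -0.09, while the median of all genes moved to 0.18 under that scaling.

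In TPM, the sum of the 3 membrane regulators was 128 and 117 in HL-60 controls, 135.5 and 133 at 112.7 pM and 125 and 124 at 500 pM. The low dose was above the controls, and the high dose lay within them. In Molm-14 cells it was 77.5 and 81.9 TPM in the controls, 89.3 and 78.7 TPM at 11.1 pM and 89.0 and 85.1 TPM at 100 pM, where the low dose overlapped the controls and the high dose lay above them. Their make-up differed by line. CD59 held 43.1% and 43.3% of the sum at 500 pM and 46.8% and 47.3% in HL-60 controls, but 10.4% and 10.5% at 100 pM and 7.73% and 6.53% in Molm-14 controls. CD46 held most of it in Molm-14 cells, with 63.7% to 68.7% over the 6 libraries.

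**Figure D2:**
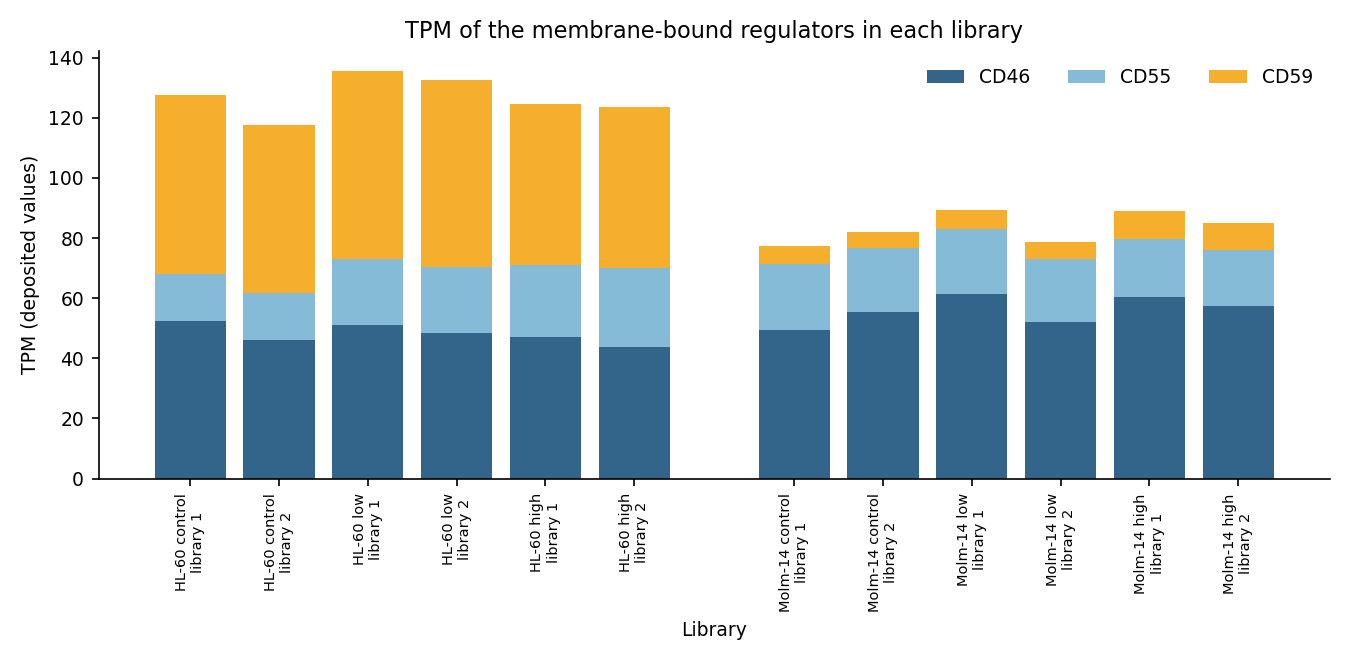
Deposited TPM of CD46, CD55 and CD59 stacked for each of the 12 libraries, with HL-60 left of Molm-14 and dose rising within each line. The CD59 part is large in HL-60 and small in Molm-14 cells, and the total runs from 117 to 136 TPM in HL-60 and from 77.5 to 89.3 TPM in Molm-14 cells.

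Counted by CPM over the 9 members at the high dose, HL-60 cells had 6 with both DSA libraries above both controls. They were C3, CFP, C3AR1, CR1, CD55 and CLU. A further 2 had both below (CD46 and CD59, of which CD46 overlapped by TPM), and CFD overlapped. Over all 13422 tested genes 41.6% lay wholly above and 42.8% wholly below. Molm-14 cells at the high dose had 8 members wholly above and CD55 wholly below, against 37.7% and 34.5% of all genes. By TPM, CLU (0.36 and 0.40, against 0.36 and 0.28) and CR1 (0.05 and 0.09, against 0.04 and 0.05) were not wholly above their Molm-14 controls there. Since the members were picked on these values, nothing is read from the counts. The median log2 change of the 9 was 2.11 in HL-60 and 1.19 in Molm-14 cells, beside 0.00 and 0.00 over all genes.

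The low doses were counted in the same way. HL-60 at 112.7 pM had 7 members wholly above and 1 (CD46) wholly below the controls, beside 36.5% and 37.8% of all genes. By TPM, CD46 overlapped these controls (51.2 and 48.3, against 52.3 and 45.9). Molm-14 at 11.1 pM had 4 wholly above (C3, CFP, CD46 and CLU) and 0 below, beside 20.2% and 22.7%. By TPM, C3 (1.35 and 1.25, against 1.60 and 1.37) and CLU (0.15 and 0.20, against 0.36 and 0.28) lay below these controls instead. CFP (2.63 and 2.49, against 2.85 and 1.54) and CD46 (61.4 and 52.2, against 49.4 and 55.4) overlapped the controls by TPM. No direction is read for these 4 at this dose. These low doses differ by line and are given side by side without a comparison. The nearest doses were HL-60 at 112.7 pM and Molm-14 at 100 pM. Their log2 changes over controls were 1.05 ± 0.061 and 1.54 ± 0.19 for C3AR1, 0.40 ± 0.086 and 1.30 ± 0.11 for C3 and 2.31 ± 0.20 and 1.30 ± 0.45 for CLU. They were 1.12 ± 0.092 and 1.86 ± 0.13 for CFP, 1.47 ± 0.18 and 1.19 ± 0.46 for CR1 and 0.06 ± 0.11 and 0.20 ± 0.077 for CFD. The regulators had -0.25 ± 0.0385 and 0.24 ± 0.0375 for CD46, 0.37 ± 0.0735 and -0.19 ± 0.072 for CD55 and 0.10 ± 0.0435 and 0.73 ± 0.078 for CD59. CR1 and CLU had few counts in Molm-14 cells.

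**Figure D3:**
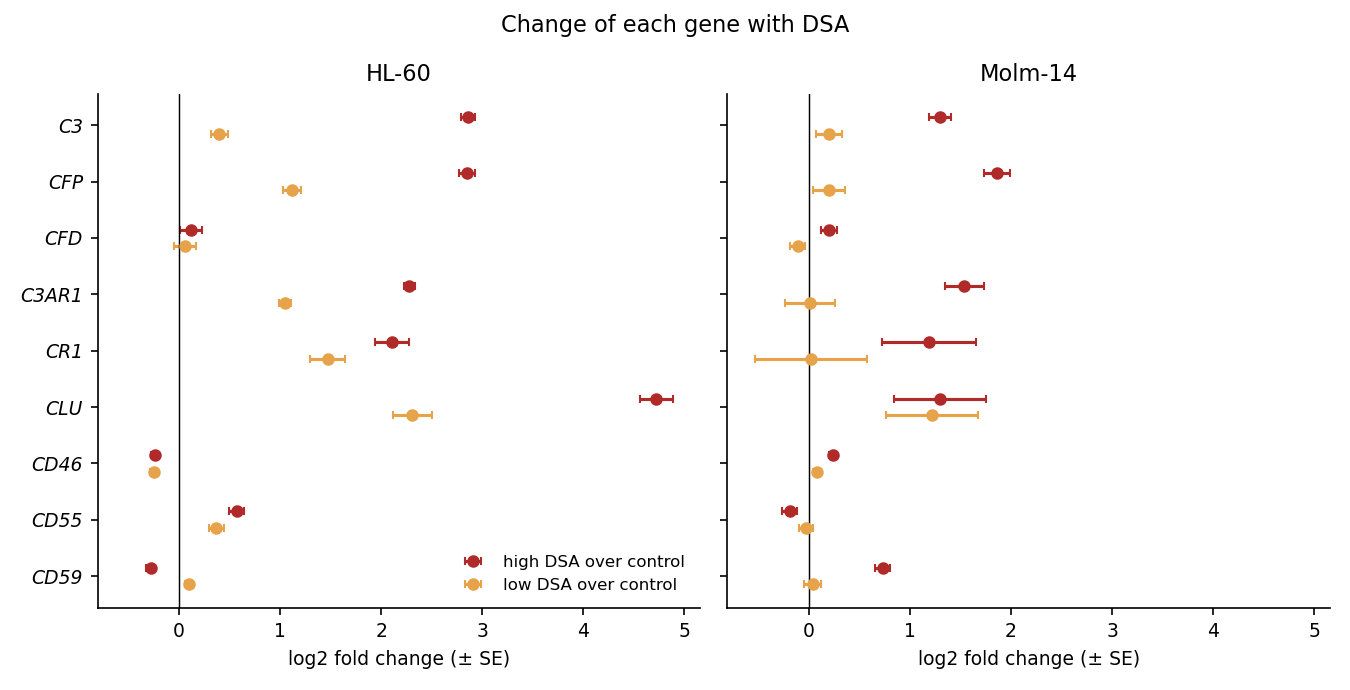
Log2 fold change (± SE) of each member for high and low DSA over the control of the same line, HL-60 left and Molm-14 right, from 2 libraries a group. CLU lies farthest from 0 at 4.72 in HL-60 cells, and CFD stays near 0 in both lines. With TMM scaling, CD46, CD55 and CD59 lie on opposite sides of 0 in the lines at the high dose. Total counts alone gave -0.06 for CD46 and -0.09 for CD59 in HL-60 cells at the high dose.

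The untreated lines differed in most members. HL-60 controls were higher than Molm-14 controls in C3AR1 (log2 4.68 ± 0.12), CR1 (3.55 ± 0.32), CD59 (3.40 ± 0.060), CLU (2.26 ± 0.37), CFP (1.60 ± 0.13) and C3 (1.46 ± 0.11), and lower in CFD (-3.24 ± 0.091) and CD55 (-0.40 ± 0.071). CD46 lay within its error of 0 (0.01 ± 0.037). Without Molm-14 control replicate 2 the CR1 value was 4.35, and with GPR108 counts added the C3 value turned to -1.48. These were 6 members wholly above, 2 wholly below and 1 overlapping, beside 47.9% and 43.6% of all genes.

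By TPM the order of the members also differed. In HL-60 controls it ran CD59 (57.7 ± 3.01, SD, n = 2), CD46 (49.1 ± 4.52), CFD (33.955 ± 5.28), CD55 (15.8 ± 0.27), C3AR1 (13.8 ± 0.67), CFP (7.15 ± 0.18), C3 (3.90 ± 0.15), CLU (0.70 ± 0.028) and CR1 (0.35 ± 0.085), with no overlap between neighbours. At 500 pM C3AR1 led with 69.5 ± 4.39 TPM, above CD59 (53.6 ± 0.13) and CFP (50.3 ± 0.042), and the libraries overlapped between CD46 and CFD, CFD and C3, and CD55 and CLU. In Molm-14 controls CFD led with 292 ± 10.3 TPM, then CD46 (52.4 ± 4.26), CD55 (21.6 ± 0.71) and CD59 (5.67 ± 0.45), and CFP and C3 overlapped. At 100 pM the Molm-14 order was the same, with CFD at 329 ± 16.8 TPM and no neighbours overlapping.

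Around these members, 51 further complement genes were listed, of which 23 passed the filter on low counts, 27 had at most 10 counts in any library and 15 had 0 in all. Among the 23 tested, 13 rose and 3 fell in HL-60 cells at 500 pM (median log2 change 1.06), where 35.8% of all genes rose and 37.8% fell (4802 and 5075 genes, or 6304 and 3376 with total counts alone). In Molm-14 cells at 100 pM 9 rose and 1 fell (median 0.30), where 22.9% of all genes rose and 21.9% fell. The median of all genes was 0.00 in both, and the Molm-14 median of the list was 0.11 without high DSA replicate 2. At the low doses 9 rose and 1 fell in HL-60 cells, where 24.2% of all genes rose and 27.4% fell (3254 and 3683 genes, or 4231 and 2696 with total counts alone). With DESeq2 6 of 23 rose and 1 fell, beside 3142 and 2494 of all 13422 genes. Thinning the libraries to the smallest total also left 6 higher and 1 lower, so nothing is read from the count of 9. In Molm-14 cells at 11.1 pM 1 rose (ITGAM, log2 0.32), where 0.969% of all genes rose and 0.238% fell, a call that was lost without any 1 of the 4 libraries compared. Between the untreated lines 9 were higher and 9 lower in HL-60, where 43.9% of all genes were higher and 40.1% lower. The median there was -0.39, but 0.21 without Molm-14 control replicate 2 and 0.20 without HL-60 control replicate 2, so that it has no stable direction.

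The integrins that bind the C3 fragment iC3b rose in both lines. ITGAM, the alpha chain of complement receptor 3, had 46.3 and 48.6 CPM at 500 pM against 4.10 and 4.004 CPM in HL-60 controls (log2 3.55 ± 0.076, adjusted p = 1.73e-17), and 44.7 and 48.7 CPM at 100 pM against 16.2 and 14.9 CPM in Molm-14 controls (log2 1.59 ± 0.064, adjusted p = 5.45e-13). ITGAX, the alpha chain of complement receptor 4, had 50.7 and 46.1 CPM at 500 pM against 2.52 and 2.19 CPM in HL-60 controls (log2 4.37 ± 0.11, adjusted p = 9.19e-17), and 8.64 and 7.86 CPM at 100 pM against 2.56 and 3.50 CPM in Molm-14 controls (log2 1.44 ± 0.13, adjusted p = 4.1e-08). Their shared beta chain ITGB2 was already abundant and rose less, by log2 1.06 ± 0.028 in HL-60 (adjusted p = 2.79e-16) and 0.24 ± 0.028 in Molm-14 cells (adjusted p = 1.35e-06).

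Both C5a receptors rose in HL-60 cells, and C5AR2 also rose in Molm-14 cells. C5AR1 had 5.48 and 6.21 CPM at 500 pM against 0.536 and 0.509 CPM in HL-60 controls (log2 3.48 ± 0.23, adjusted p = 1.08e-10), but 6 and 5 counts at 100 pM against 9 and 13 counts in Molm-14 controls (log2 -1.07 ± 0.46, adjusted p = 0.0723). C5AR2 rose in both, with log2 changes of 2.92 ± 0.24 (adjusted p = 2.34e-09) in HL-60 and 1.24 ± 0.34 (adjusted p = 0.0064) in Molm-14 cells. The Molm-14 value was 0.71, no longer past the threshold, without control replicate 1, and 2.15 without control replicate 2.

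The starting proteins of the classical and lectin routes were mostly low. C1QA, a chain of C1q, rose in HL-60 cells to 15.7 and 15.5 CPM at 500 pM, against 2.65 and 2.82 CPM in controls (log2 2.50 ± 0.12, adjusted p = 4e-12), while the chains C1QB and C1QC had at most 9 and 12 counts in any library. FCN1, the ficolin of monocytes, rose to 10.1 and 10.998 CPM, against 3.08 and 3.09 CPM (log2 1.78 ± 0.16, adjusted p = 8.06e-09). Molm-14 cells had at most 2 counts of C1QA and at most 3 counts of FCN1 in a library. C1RL, a C1r-like protease, rose in both lines, by log2 2.56 ± 0.097 in HL-60 (adjusted p = 3.69e-14) and 0.72 ± 0.066 in Molm-14 cells (adjusted p = 4.77e-08). The near-identical genes C4A and C4B had 1.8 to 69.9 expected counts, which RSEM split between them. C4A is among the 9 that rose in Molm-14 cells and C4B among the 3 that fell in HL-60 cells, and both are uncertain.

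Some regulators were present in a single line. THBD (thrombomodulin) had 0 counts in all 6 HL-60 libraries, and was at least 423-fold lower in HL-60 than in Molm-14 controls when set against a floor of 3 counts a library. In Molm-14 cells it rose to 42.9 and 43.2 CPM at 100 pM, against 29.3 and 26.3 CPM in controls (log2 0.63 ± 0.066, adjusted p = 1.11e-06). CD93, a receptor first described as binding C1q, likewise rose in Molm-14 cells (log2 0.47 ± 0.046, adjusted p = 1.01e-07) and had at most 7 counts in an HL-60 library. C1QBP, a mitochondrial protein named for binding C1q, fell in both lines, by log2 -0.66 ± 0.034 in HL-60 (adjusted p = 2.57e-12) and -0.27 ± 0.032 in Molm-14 cells (adjusted p = 1.51e-06).

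**Figure D4:**
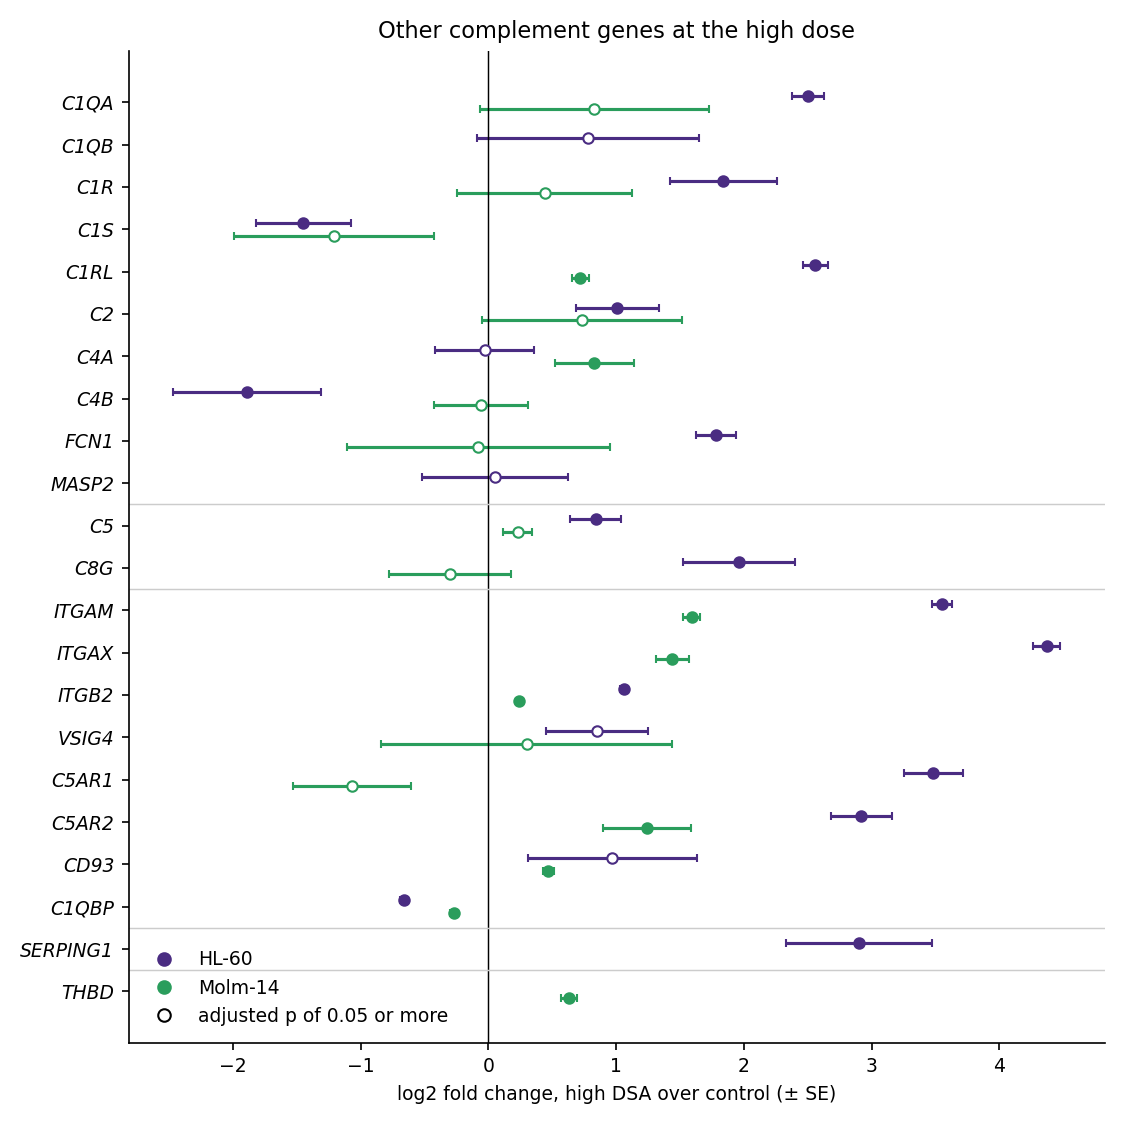
Log2 fold change (± SE) of high DSA over control for 22 of the 23 other complement genes tested, HL-60 above Molm-14 on each row and grey lines between roles (initiation, terminal pathway, receptors, fluid-phase and membrane regulators). Filled points have an adjusted p under 0.05, and a gene with 0 counts in both libraries of a group has no point for that line. ITGAX, ITGAM and C5AR1 lie farthest to the right in HL-60 cells.

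The 27 genes that build and attach the GPI anchor, which CD55 and CD59 need, were all tested. In HL-60 cells at 500 pM 5 rose and 13 fell (median log2 change -0.16), where 35.8% of all genes rose and 37.8% fell, and with total counts alone 11 rose and 11 fell (median 0.02). In Molm-14 cells at 100 pM 3 rose and 5 fell (median 0.02), where 22.9% of all genes rose and 21.9% fell. The clearest in HL-60 cells were PIGF (log2 -1.08 ± 0.081, adjusted p = 5.8e-10), PIGK (-0.73 ± 0.063, adjusted p = 4.36e-09) and PIGA (-0.85 ± 0.074, adjusted p = 5.4e-09). PIGA makes the first intermediate of the anchor, and PIGK is the catalytic subunit of the transamidase that attaches it. In Molm-14 cells they were PIGG (0.33 ± 0.054, adjusted p = 5.1e-05), PGAP3 (0.47 ± 0.080, adjusted p = 9.28e-05) and DPM1 (-0.28 ± 0.049, adjusted p = 0.000146).

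Markers of myeloid stages moved beside the members. Of the 7 monocyte markers, 6 were tested, and 6 rose in HL-60 cells at 500 pM and 4 in Molm-14 cells at 100 pM (CSF1R, LYZ, CD68 and MS4A7). Their summed level was 227 to 229.6 CPM at 500 pM against 70.6 to 73.1 CPM in HL-60 controls, and 1219 to 1224 CPM at 100 pM against 523 to 542 CPM in Molm-14 controls. The 5 promyelocyte granule genes all fell in HL-60 cells, where their sum was 6594 to 6613 CPM at 500 pM against 18371 to 18627 CPM in controls. In Molm-14 cells 2 rose and MPO fell, with sums of 4109 to 4235 CPM at 100 pM against 3542 to 3651 CPM in controls. Of the 7 mature neutrophil markers, 3 were tested. In HL-60 cells CAMP rose from a low level (mean 0.083 to 0.737 CPM) and CXCR2 rose by log2 0.58, whereas CSF3R did not pass (log2 -0.09). Their summed level was 85.2 to 88.2 CPM at 500 pM against 81.8 to 81.9 CPM in HL-60 controls. In Molm-14 cells CXCR2 and CSF3R rose and CAMP did not pass. The sum there was 122 to 123 CPM at 100 pM against 67.1 to 67.5 CPM in the controls. Markers of other lineages also rose in HL-60 cells at 500 pM, from low levels. They were CD3E (log2 2.97) and CD2 (2.56) of the T cell list, CD79A (1.12) and PAX5 (2.54) of the B cell list, ITGA2B (2.55) of the megakaryocyte list, PDGFRB (3.20) and COL1A1 (2.26) of the fibroblast list and MARCO (1.75) and APOE (0.72) of the macrophage list. The sums at 500 pM, against those in HL-60 controls, were 4.24 to 4.4003 against 0.536 to 0.662 CPM for T cell, 5.76 to 6.02 against 2.60 to 2.61 CPM for B cell, 8.39 to 8.47 against 1.39 to 1.58 CPM for megakaryocyte, 1.17 to 1.75 against 0.161 to 0.221 CPM for fibroblast and 1.59 to 2.40 against 0.967 to 1.15 CPM for macrophage markers. In Molm-14 cells PAX5 fell (log2 -0.21). MS4A1 of the B cell list and DCN of the fibroblast list were at 0 in all libraries. The erythroid markers HBB, HBA1 and ALAS2 were at 0 in all libraries, and of the hepatocyte markers APOB, TTR and FGB were at 0. Red cells carry much CR1, and the liver makes most plasma C3. FCN1 is in both the monocyte list and the complement list. The part of these markers in the members' changes was not tested.

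The genes most alike to each member in profile were taken over the 12 libraries, with each line centred on its own mean, from 11671 genes of at least 1 CPM. The closest were CYLD and HP for C3 (Pearson's r of 0.994 and 0.990), VSIR, GLIPR1 and NCF1 for CFP (0.997 to 0.995), ORAI3, TLR1 and EEPD1 for C3AR1 (0.994 to 0.993) and FFAR2, B3GALT4 and RERE for CLU (0.987 to 0.983). For CR1 they were FNBP1L, SHANK3 and KIAA1522 (0.973 to 0.966), and for the regulators MGAT4A, PLEKHA1 and CRYZL1 for CD46 (0.963 to 0.961), CKLF, DLX3 and PPP1R13L for CD55 (0.969 to 0.964) and ALDH4A1, TRIM6 and NADSYN1 for CD59 (0.983 to 0.978). CFD had the loosest matches, DAPK3, ZNF865 and CHURC1 (0.939 to 0.892). These points share libraries, groups and depth, and the values are a description.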

How the data were processed

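RNA sequencing libraries of 12 samples were used, 2 in each of 6 groups. The authors trimmed reads with Trim Galore (0.60), mapped them to hg38 with STAR (2.7) and used RSEM (1.31) with GENCODE release 31 to estimate expected counts and TPM of each gene. The expected counts as deposited are neither filtered nor scaled, and the authors scaled the deposited TPM to transcript length and library size. The sources used here do not give a strand setting for the counting, and reads of overlapping genes may have been shared. The controls are labelled untreated, while the study's methods name a vehicle.

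Gene identifiers were matched to GENCODE release 44 (same assembly; 60261 of 60754), and 45 pseudoautosomal copies were left out. Counts were rounded, the 19868 protein-coding genes of level 1 or 2 were filtered with filterByExpr, scaled by TMM and fitted over all 12 libraries by edgeR 4.0.16 (glmQLFit and glmQLFTest, R 4.3.3), with Benjamini-Hochberg adjustment over 13422 genes and a threshold of 0.05. Scripts were tested on simulated data. CPM in the text use the same factors. SE is the absolute log2 fold change divided by the root of the F statistic. The members and lists were chosen with earlier results of these data known. Named other complement genes are the up to 12 with the smallest p at a high dose, an adjusted p under 0.05 and a mean of at least 50 counts over the libraries compared; of the GPI anchor genes, the 3 with the smallest p per line; as most alike, the 3 genes with the highest r per member; and overlapping or near-identical genes, neighbours of CFD and markers. DESeq2 1.42.0, limma 3.58.1 (voom), other scalings, filters, gene sets, thinning, a replicate block and leaving out each library were tried as alternatives. A few items that these rules name are not reported here.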

Additional observations from a re-analysis of the deposited data

Results flagged for a closer look

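The change at the high dose differed between the lines in 7 of the named complement genes by the interaction term of edgeR's model. C1QA, FCN1 and CD93 did not pass that term (adjusted p = 0.322, 0.185 and 0.541 by the same test). These genes were named by their p at a high dose, which uses the same values. The share of all genes passing the term was not counted, so nothing is read from the number 7. The difference on the log2 scale, HL-60 minus Molm-14, was 1.96 for ITGAM (adjusted p = 1.84e-11), 2.93 for ITGAX (adjusted p = 1.89e-10), 0.82 for ITGB2 (adjusted p = 5.29e-12), 1.83 for C1RL (adjusted p = 3.07e-10), -0.39 for C1QBP (adjusted p = 9.37e-07), 4.56 for C5AR1 (adjusted p = 6.34e-07) and 1.68 for C5AR2 (adjusted p = 0.0035). The C5AR2 difference was 0.77, no longer past the threshold, without Molm-14 control replicate 2, and 2.21 without Molm-14 control replicate 1. In each of the 7 genes that passed, the HL-60 change was the farther from 0. The high doses were 500 pM in HL-60 and 100 pM in Molm-14 cells, so line and dose cannot be told apart.

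In TMM-scaled CPM, CD46, CD55 and CD59 went opposite ways at the high dose. Both DSA libraries lay on 1 side of both controls in HL-60 and on the other side in Molm-14 cells. With total counts alone the HL-60 changes of CD46 and CD59 were -0.06 and -0.09, while the median of all genes there moved to 0.18. The deposited TPM of CD46 overlapped between high DSA and control in HL-60 cells. The HL-60 drops of CD46 and CD59 therefore depend on the scaling. The difference of the log2 changes, HL-60 minus Molm-14, was -0.48 for CD46, 0.75 for CD55 and -1.01 for CD59. These differences were not tested, because the genes were chosen on these values.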

How the results depend on the processing

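The members gave 835 alternative values, of which 788 moved by less than the spread between replicates and the rest by more. An opposite sign came up in 29 of them. In 28 of these the value as reported was within 0.20 of 0 (C3, C3AR1, CR1, CD55 and CD59 in Molm-14 cells at the low dose, CFD in HL-60 cells and its difference between the lines, and CD46 between the untreated lines). The other was C3 between the untreated lines, 1.46 as reported and -1.48 with the GPR108 counts added, an alternative chosen after seeing the data. GPR108 held most of the summed counts in Molm-14 controls, so that value does not show a change of direction in C3. Among the other named genes, 1739 of 1814 values stayed on their side of the threshold, 63 lost the call, 11 gained it, and PIGG in HL-60 cells at the high dose turned from -0.03, which did not pass, to 0.16, which passed, with total counts alone. Counts of list genes called, higher and lower added up, stayed within 1.5 times in 95 of 101 cases. The 6 exceptions were the other complement genes in Molm-14 cells at the low dose, with 1 gene (ITGAM) as reported, 0 with DESeq2, 0 with libraries thinned to the smallest total and 0 to 0 with any 1 library left out. By direction, GPI anchor genes higher in HL-60 cells were 5 and became 11 with total counts alone, and other complement genes higher in untreated HL-60 cells were 9 and became 5 with only the groups compared. The median there was -0.39 and became 0.12 with near-identical genes summed. Other complement genes higher in HL-60 cells at the low dose were 9 and became 6 with DESeq2, with thinned libraries and with no filter. With 1 library left out, the other complement genes called ranged from 8 to 10 in Molm-14 and from 16 to 17 in HL-60 cells at the high dose, from 7 to 8 in HL-60 cells at the low dose and from 15 to 18 between the lines, and the GPI anchor genes from 7 to 8 in Molm-14 and from 17 to 18 in HL-60 cells. The lone library left in a group was then assumed to vary like the other groups. Causes were not tested.

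Over 15 pairs of groups, deviations of same-numbered libraries, taken over all tested genes, correlated between -0.077 and 0.069, with 0 pairs over 0.1. No pairing by replicate number was seen in this way, but a pairing that touches only some genes may not show in it. With the replicate number as a block, 3025 genes rose and 2904 fell in Molm-14 cells at the high dose, against 3077 and 2936 without it. The other complement genes numbered 7 higher and 1 lower in HL-60 cells at the low dose, against 9 and 1 without the block, and 8 higher and 9 lower between the lines, against 9 and 9. At 100 pM in Molm-14 cells they numbered 9 and 1 with and without it, and at 500 pM in HL-60 cells 13 and 3. With 2 libraries a group, genes of few counts such as CR1 and CLU in Molm-14 cells have wide errors.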
